A study of Mus musculus with 2 samples.

Results

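Imprinted genes are transcribed mainly from the chromosome copy of 1 parent, and 46 of them were followed in mouse embryonic stem cells (mESCs) from which AIMP3 had been depleted. The 46 were chosen by name, and probes were assigned to them through the transcript accession or symbol that the array gives. A probe was present for 45 of the 46, with 81 probes in all, and 43 genes passed the detection filter, of 24030 genes tested on the array. Of the 43, 7 were raised over 1.5-fold after AIMP3 depletion (H19, Igf2, Cdkn1c, Plagl1, Gnas, Peg10 and Cd81) and 0 were lowered. Of these, H19, Igf2, Cd81 and Cdkn1c lie in the neighbouring clusters of distal chromosome 7.

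The cells were AIMP3f/f;cre-ERT2 mESCs, which carry loxP sites in both AIMP3 alleles and a Cre recombinase that is active only in the presence of tamoxifen. Both groups carried these alleles. The AIMP3-depleted group received 2 μM tamoxifen (4-OHT in the methods) for 4 days in LIF-containing medium, in 2 replicates, and control cells received ethanol for the same time. Control RNA was combined into 1 pool that carried Cy3 on both arrays, and each AIMP3-depleted replicate carried Cy5 on an array of its own. The pool is 1 control sample, so differences among control cultures do not enter the test against 0, and without a dye swap a gene-specific dye difference cannot be told apart from depletion. Only the AIMP3-depleted group received tamoxifen and so had active Cre. The arrays hold no group with tamoxifen and Cre but without floxed AIMP3. Effects of the drug or of Cre activity therefore cannot be told apart from loss of AIMP3. The labels do not say that the replicates were grown from separate cell isolates, and p-values then cover only the spread between these samples, which may be technical. The mESCs were derived from blastocysts of mice with the floxed alleles, and the number of clones behind the arrays is not given in the sources used here. The labels describe culture on feeder layers of mouse embryonic fibroblasts (MEFs) as the usual condition, whereas the methods give medium conditioned by MEFs for the drug incubation.

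Genomic imprinting rests on DNA methylation that is laid down in the germline of 1 parent at an imprinting control region, and that survives the loss of methylation in the early embryo. In many domains the control region lies at the promoter of a long non-coding RNA, such as Kcnq1ot1 or Airn, that silences coding genes on the same chromosome copy. Elsewhere it sets which promoter reaches a shared enhancer, as between H19 and Igf2. Several maternally expressed genes, such as Cdkn1c, Igf2r, Grb10 and Phlda2, are known to restrain growth, and several paternally expressed genes, such as Igf2, Peg3 and Plagl1, are known for roles in growth of the embryo or placenta. Cultured mESCs are known to vary in imprint methylation from line to line. The array measures the RNA of both parental copies together, so a change in level says nothing of which copy it came from.

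Depletion of the target was checked first. The signal of Eef1e1, which encodes AIMP3, was 2081 and 2070 in the control channel of the arrays of replicates 1 and 2, against 1052 and 1045 in the AIMP3-depleted channel. Its log2 ratio of AIMP3-depleted over control was -0.90 on both arrays, and Eef1e1 was called lowered (mean -0.90 ± 0.0067, SD, n = 2, limma adjusted p = 5.04e-05). Of the spots in a channel, 59.3% to 60.6% were well above background, and no spot was saturated. A gene was tested if each array showed a probe of it well above background in 1 channel or both, and its brightest probe was used. A gene was called raised or lowered if it changed over 1.5-fold (0.58 on the log2 scale) with an unadjusted limma p under 0.05, which is the threshold of the study. Over all tested genes 1327, or 5.52%, were raised and 190, or 0.791%, were lowered, which makes 6.31% in either direction.

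Read against that background, the 7 raised genes made up 16.3% of the 43 tested imprinted genes. No chance test was made of this share, since the genes were chosen with earlier results of these data known. The log2 ratio was positive for 29 of the 43 and negative for 14, with a median of 0.19 beside 0.02 over all tested genes. At an adjusted p under 0.05 and any fold, 24 imprinted genes were higher and 5 were lower, where 30.5% and 23.7% of all tested genes passed in these directions. The sign was the same on both arrays for 38 genes and opposite for 5. The median SD between the arrays was 0.039 for the imprinted genes and 0.0481 for all tested genes.

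**Figure D1:**
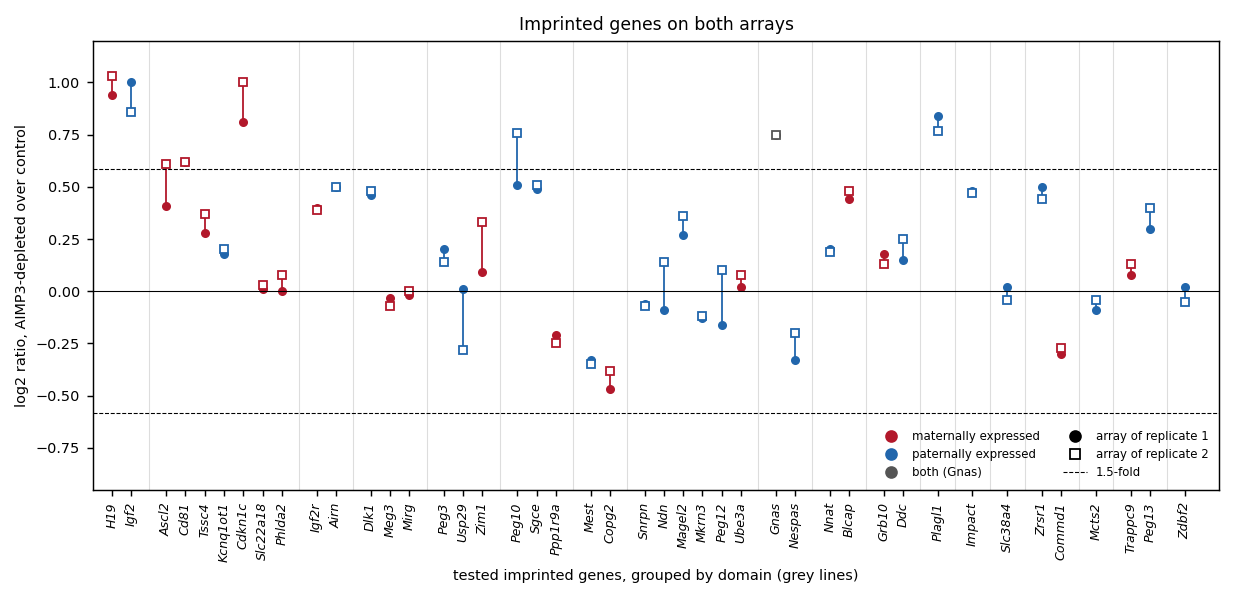
Log2 ratio of AIMP3-depleted over control (y axis) for each of the 43 tested imprinted genes, grouped by domain along the x axis. Circles and squares are the arrays of replicates 1 and 2, colour gives the parental copy that is normally expressed, and dashed lines mark 1.5-fold. The highest values belong to H19, Igf2 and Cdkn1c, no gene lies under the lower line, and Copg2 and Mest are the lowest.

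The promoters were read next to these values for the DNA motif of ZFP57, a zinc-finger protein that binds the methylated copy of imprinting control regions and protects its methylation. The motif searched was TGCCGC on both strands, where the other strand reads GCGGCA, in the 250 bases before each RefSeq start site (GRCm38.p6). A promoter was at hand for 37 of the 46 genes, and 8 of the 37 (21.6%) held the motif in at least 1 promoter, against 9.84% of 27025 genes with a promoter. The promoters of the imprinted genes also held more CpG dinucleotides, at a median of 10 against 6 over all promoters, and the 37 genes had 56 promoters where the 27025 had 32851. The part of both in the share was not tested. The genes were Copg2, Mcts2, Meg3, Mest, Nap1l5, Plagl1, Zdbf2 and Zim1. The table holds no promoter for Cdkn1c, H19, Impact, Nespas, Peg10, Peg13, Rtl1, Sgce and Trappc9. Promoters are printed here because they set the sequence beside opposite results. Plagl1 was raised and holds the motif, Mest was among the lowest values and holds 2 copies, Meg3 lay near 0 and holds 1, and Cd81 was raised and holds none. Sequences run 5′ to 3′ on the strand of the gene, with the motif in capitals.
Plagl1, chr10:13090582-13090831, plus strand: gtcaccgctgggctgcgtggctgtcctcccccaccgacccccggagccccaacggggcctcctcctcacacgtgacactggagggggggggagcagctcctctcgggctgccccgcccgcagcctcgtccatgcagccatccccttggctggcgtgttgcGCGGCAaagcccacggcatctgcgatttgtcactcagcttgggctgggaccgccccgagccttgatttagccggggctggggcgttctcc
Mest, chr6:30737800-30738049, plus strand: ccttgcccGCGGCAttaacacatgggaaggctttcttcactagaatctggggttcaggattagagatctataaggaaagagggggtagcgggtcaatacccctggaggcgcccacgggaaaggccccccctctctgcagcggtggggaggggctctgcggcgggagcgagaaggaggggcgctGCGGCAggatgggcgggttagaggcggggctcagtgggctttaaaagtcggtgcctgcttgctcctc
Meg3, chr12:109540746-109540995, plus strand: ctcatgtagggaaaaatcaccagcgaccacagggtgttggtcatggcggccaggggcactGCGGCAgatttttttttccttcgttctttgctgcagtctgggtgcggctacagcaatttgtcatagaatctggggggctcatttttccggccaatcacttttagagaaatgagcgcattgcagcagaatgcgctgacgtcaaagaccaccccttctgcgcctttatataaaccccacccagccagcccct
Cd81, chr7:143052500-143052749, plus strand: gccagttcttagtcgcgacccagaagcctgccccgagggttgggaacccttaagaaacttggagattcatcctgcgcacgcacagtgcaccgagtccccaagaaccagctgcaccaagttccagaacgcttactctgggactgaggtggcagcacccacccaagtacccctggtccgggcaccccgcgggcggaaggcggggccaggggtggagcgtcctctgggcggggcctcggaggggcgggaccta
Ratios of genes with and without the motif overlapped. Among genes with the motif 1 of the 7 tested was raised, and their ratios ran from -0.43 to 0.81 with a median of -0.05. Among genes with a promoter and no motif 3 of the 28 tested were raised, and their ratios ran from -0.28 to 0.93 with a median of 0.18. A match describes letters in a window of the mouse reference and is not a measured binding site, and methylation was not measured here.

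H19 and Igf2 share 1 imprinting control region, IC1, on distal chromosome 7, and both were raised. H19 is a long non-coding RNA made from the maternal copy and the host of a microRNA. Its signal was 2738 and 2687 in the control channel and 5017 and 5262 in the AIMP3-depleted channel, so both depleted values lie above both control values. The log2 ratio was 0.94 for replicate 1 and 1.03 for replicate 2 (mean 0.98 ± 0.0605, SD, n = 2, limma adjusted p = 4.88e-05), the highest among maternally expressed genes at the brightest probe. With the mean of all probes H19 stood at 0.79, under Cdkn1c at 0.90, and the 2 genes were level with processed signals (0.92 for both) and in the deposited table (0.96 for both). H19 was read only from the probes that the array itself names H19, and all 5 of them gave mean ratios between 0.68 and 0.98. Igf2, the insulin-like growth factor made from the paternal copy, had signals of 557 and 601 in the control channel and 1050 and 1083 in the depleted channel. Its ratios of 1.00 and 0.86 (mean 0.93 ± 0.0972, SD, n = 2, limma adjusted p = 6.64e-05) were the highest among paternally expressed genes. The pair is known to be expressed from opposite parental copies under 1 switch, and here the ratio of H19 minus that of Igf2 was -0.05 on 1 array and 0.17 on the other, so the arrays do not order the partners.

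**Figure D2:**
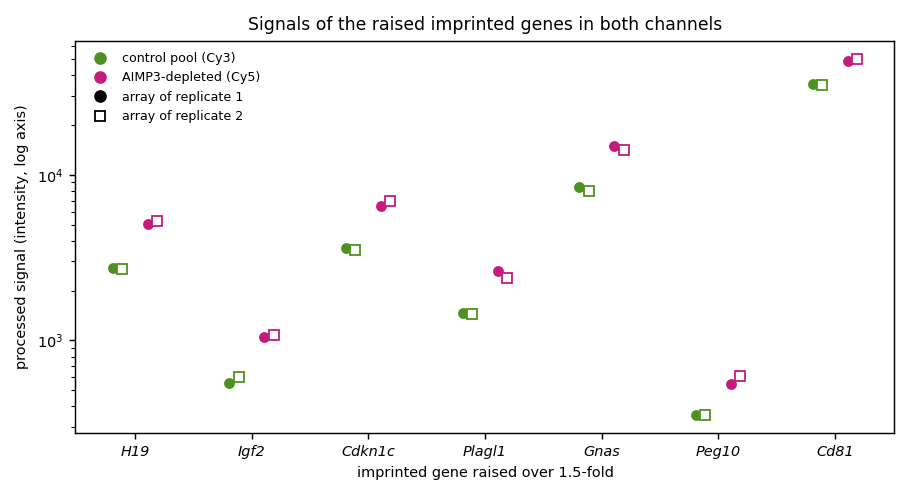
Processed signal (y axis, log scale) of the 7 raised imprinted genes in the control pool (green, Cy3) and in AIMP3-depleted cells (magenta, Cy5), with the arrays of replicates 1 and 2 as circles and squares. For each gene both depleted signals lie above both control signals, for example 5017 and 5262 against 2738 and 2687 for H19. Levels of different genes come from different probes and are not to be compared.

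The adjoining cluster is governed by the control region IC2, at which the paternally expressed antisense RNA Kcnq1ot1 starts. Of its 7 tested genes 2 were raised. All 7 ratios were positive at the brightest probes, from 0.02 to 0.90, but Kcnq1ot1 turned to -0.03 with the mean of all probes, and Slc22a18 to -0.05 with processed signals and -0.01 in the deposited table. Cdkn1c encodes the cyclin-dependent kinase inhibitor p57 and is expressed from the maternal copy. It had signals of 3603 and 3535 in the control channel and 6532 and 6957 in the depleted channel, and ratios of 0.81 and 1.00 (mean 0.90 ± 0.132, SD, n = 2, limma adjusted p = 9.59e-05). Cd81, a tetraspanin of the cell surface whose imprinting is limited to extraembryonic tissue, rose from 35492 and 34801 to 49010 and 50421. Its ratio was 0.62 on both arrays (limma adjusted p = 0.000133), near the threshold, and it fell under 1.5-fold with the scanner's processed signals (0.50) and in the deposited table (0.54).

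The other maternally expressed genes of IC2 did not pass. Ascl2, a transcription factor needed for the placenta, had ratios of 0.41 and 0.61 and passed 1.5-fold on the array of replicate 2 alone. Tssc4 had ratios of 0.28 and 0.37. The growth restrainer Phlda2 had 0.00 and 0.08, and the transporter gene Slc22a18 had 0.01 and 0.03. Kcnq1ot1 itself had 0.18 and 0.20 at its brightest probe, under an accession of RefSeq, and 0.23 and 0.11 at another probe of that accession. Probes that the array names KCNQ1ot1 gave lower values, -0.24 and -0.28 at the brightest of them, so the direction of Kcnq1ot1 depended on the probe, and the mean over its tested probes was -0.03. The ratio of Cdkn1c exceeded that of Kcnq1ot1 by 0.63 and 0.80, whereas Phlda2 minus Kcnq1ot1 was -0.18 and -0.12. With the mean of all probes, Phlda2 minus Kcnq1ot1 was -0.01 and 0.14, so the order of these genes depended on the probe.

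The rise was not spread evenly over this stretch. From H19 to Dhcr7 in the order of RefSeq genes, 23 genes were tested and 8 of them, 34.8%, were raised, against 59 of 1204, or 4.9%, on the rest of chromosome 7. Without the imprinted genes under study, 4 of 14, or 28.6%, were raised, with 8 positive ratios and a median of 0.03. This stretch was marked out after its values had been seen, and no test was made of it. Besides the imprinted genes under study, the raised genes were Igf2os at 1.02, Tspan32 at 0.65, Tnfrsf23 at 0.64 and Osbpl5 at 1.10. Igf2os is the antisense transcript of Igf2, and Osbpl5, which encodes a lipid transfer protein, is known as maternally expressed in placenta. Between raised genes lay Ins2 at 0.03 and Th at 0.06, and Tnfrsf22, beside Tnfrsf23, had -0.57 and -0.47. Igf2os and Tnfrsf22 belong to no list used here and were named after their values were seen.

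**Figure D3:**
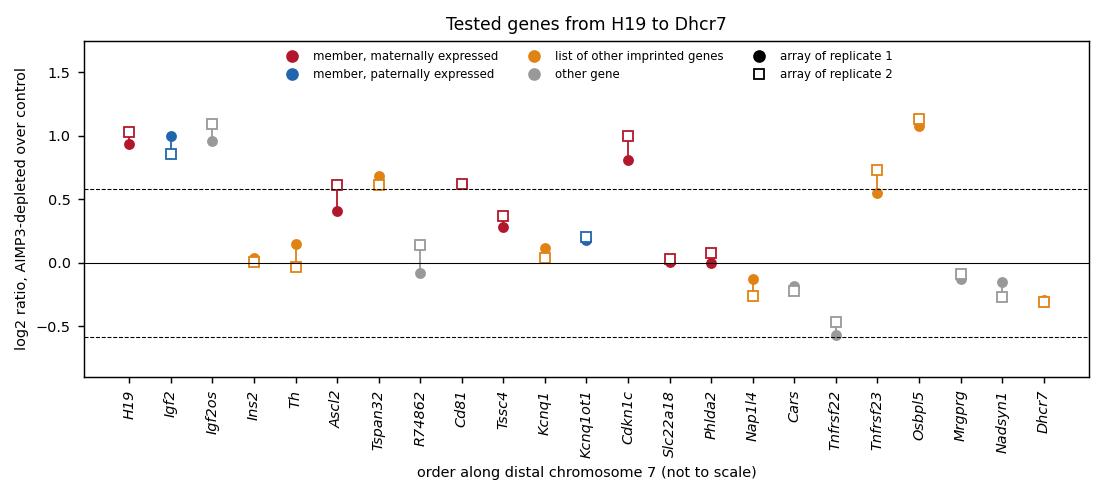
Log2 ratio of AIMP3-depleted over control (y axis) of the 23 tested genes from H19 to Dhcr7, in their order on chromosome 7 (x axis, not to scale). Circles and squares are the arrays of replicates 1 and 2, colour tells imprinted genes under study, the list of other imprinted genes and the remaining genes apart, and dashed lines mark 1.5-fold. Raised genes alternate with genes near 0 such as Ins2, Th and Phlda2, and Kcnq1 was not well above background in the control channel.

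Outside distal chromosome 7, 3 imprinted genes were raised. Plagl1, which encodes a zinc-finger factor known to regulate other imprinted genes, had signals of 1457 and 1438 in the control channel and 2620 and 2393 in the depleted channel. Its ratios were 0.84 and 0.77 (mean 0.81 ± 0.0456, SD, n = 2, limma adjusted p = 6.94e-05). A second probe of the same transcript had ratios of 0.90 and 0.73. Its 2 dimmer probes gave mean ratios of only 0.16 and 0.12, so the probes of Plagl1 agreed in sign and not in size. With the mean over all 4 probes Plagl1 stood at 0.48, under the threshold.

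Gnas encodes the stimulatory G-protein alpha subunit, and its locus makes transcripts of either parental copy and of both. The probe of transcript NM_010309 had ratios of 0.75 on both arrays (limma adjusted p = 7.65e-05), with signals of 8452 and 8045 against 14881 and 14167. The probe of NM_019690 had -0.13 and 0.10, and that of NM_201617 was not well above background in either channel. Nespas, the paternally expressed antisense RNA of the same locus, had -0.33 and -0.20 and did not pass 1.5-fold (mean -0.26, limma adjusted p = 0.00596). Signals of Nespas were low, at 129 and 110 in the control channel and 93.3 and 80.3 in the depleted channel. At the brightest probes Gnas and Nespas stood 1.01 apart on the log2 scale, the widest difference within a domain. With the mean of all probes they stood 0.63 apart, less than the extremes of IC2 (0.93) and of the Peg10 domain (0.91).

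Peg10, a retrotransposon-derived gene that the placenta needs, had ratios of 0.51 and 0.76 (mean 0.63 ± 0.173, SD, n = 2, limma adjusted p = 0.000509), and a second probe gave 0.53 and 0.60. On the array of replicate 1 alone it lay under 1.5-fold. Its neighbour Sgce, an epsilon-sarcoglycan gene that is also expressed from the paternal copy, had 0.49 and 0.51. Ppp1r9a, a neurabin gene of the same domain with maternal expression in some tissues, went the other way at -0.21 and -0.25, which put it 0.73 and 1.01 under Peg10. Both arrays thus ordered this domain in the same way, with the paternally expressed pair above the maternally expressed gene.

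**Figure D4:**
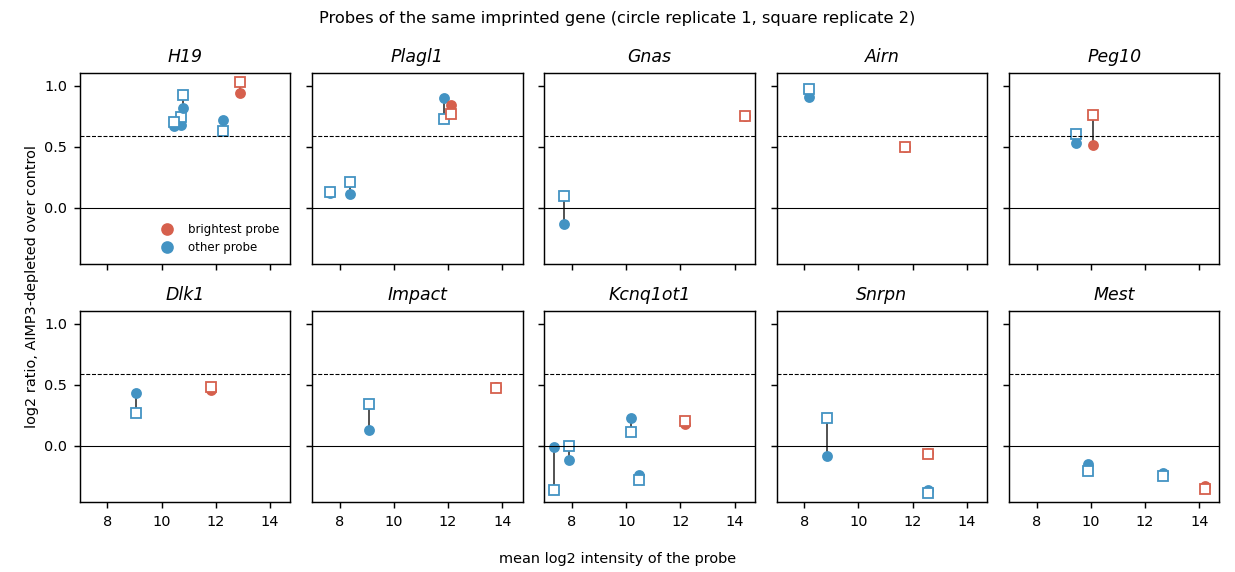
Log2 ratio (y axis) of each tested probe against its mean log2 intensity (x axis) for 10 imprinted genes with several probes, with the brightest probe in red and the others in blue. Circles and squares are the arrays of replicates 1 and 2, and the dashed line marks 1.5-fold. All probes of H19 lie above the line, whereas dim probes of Plagl1 and Gnas lie near 0 and the probes of Kcnq1ot1 lie on both sides of 0.

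Between the called genes and the rest, 7 genes stopped between 0.40 and 0.58. These were Ascl2, Airn, Dlk1, Sgce, Blcap, Impact and Zrsr1, with means from 0.46 to 0.51, and none was called in this fit. Airn, the paternal antisense RNA that silences Igf2r, had a ratio of 0.50 on both arrays and of 0.91 and 0.97 at a dimmer probe. With the mean of all probes Airn stood at 0.72 and was called raised (limma adjusted p = 0.000104). Igf2r, the receptor that clears IGF2 from the cell surface, had 0.40 and 0.39, so the partners of this domain stood 0.10 and 0.11 apart on the 2 arrays, with Airn higher. With the mean of all probes Igf2r minus Airn was -0.30 and -0.34. In the Dlk1-Meg3 domain of chromosome 12, the paternally expressed Notch-family ligand gene Dlk1 had 0.46 and 0.48. The maternally expressed non-coding RNAs of that domain, Meg3 at -0.03 and -0.07 and Mirg at -0.02 and 0.00, stayed near the median of all genes. Meg3 minus Dlk1 was -0.49 and -0.55.

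Blcap, a gene that hosts the paternally expressed Nnat in its intron, had 0.44 and 0.48, beside 0.20 and 0.19 for Nnat, which encodes a small membrane proteolipid. The same nesting holds for Zrsr1, a retrogene for a splicing factor inside Commd1. Zrsr1 had 0.50 and 0.44, and its host Commd1 had -0.30 and -0.27, so host and retrogene lay 0.79 and 0.72 apart with the host lower. Impact, which encodes an inhibitor of the GCN2 pathway of amino acid sensing, had 0.48 and 0.47 and a dimmer probe with 0.13 and 0.34. Peg13, a paternal non-coding RNA within Trappc9, had 0.30 and 0.40, and Trappc9 had 0.08 and 0.13 at its brightest probe and -0.15 and -0.40 at another.

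No imprinted gene was called lowered, and Copg2 and Mest had the lowest ratios in this fit. The order of the low genes depended on the processing. With processed signals Usp29 stood at -0.51, Nespas at -0.46 and Snrpn at -0.42, beside -0.47 for Copg2 and -0.29 for Mest. Mest, a paternally expressed gene for a hydrolase-like protein, had signals of 10190 and 9875 in the control channel and 8424 and 7947 in the depleted channel. Its ratios were -0.33 and -0.35 (mean -0.34 ± 0.0146, SD, n = 2, limma adjusted p = 0.00112), and all 3 of its probes were negative. Copg2, a coatomer subunit gene that overlaps Mest on the opposite strand, had -0.47 and -0.38 (mean -0.43 ± 0.0602, SD, n = 2, limma adjusted p = 0.000635). Both genes were lower at the adjusted p and neither reached 1.5-fold. With median centring, which put the median of all tested genes at 0.18, Mest stood at -0.03 and was no longer lower at the adjusted p (limma adjusted p = 0.742), which is -0.21 relative to that median. These 2 were the only tested genes of their domain, which was the only domain with several tested genes in which every ratio was negative.

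The Snrpn cluster of proximal chromosome 7, which corresponds to the region of Prader-Willi and Angelman syndromes, lay close to 0. Snrpn, a splicing-factor gene, had -0.06 and -0.07 at its brightest probe and -0.36 and -0.39 at an almost equally bright probe for another transcript, so its value depended on the probe. With processed signals Snrpn stood at -0.42 (limma adjusted p = 0.0154). Magel2 had 0.27 and 0.36, Mkrn3 had -0.13 and -0.12, Ndn had -0.09 and 0.14, and Peg12 had -0.16 and 0.10. The arrays disagreed in sign for Ndn and Peg12. Ube3a, the ubiquitin ligase gene with maternal expression in neurons, had 0.02 and 0.08. The ratio of Ube3a was under that of Magel2 by 0.25 and 0.29, and over that of Mkrn3 by 0.15 and 0.20.

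In the Peg3 cluster Peg3, a zinc-finger gene, had 0.20 and 0.14 and Usp29 had 0.01 and -0.28 at low signal. Zim1 was not well above background in the control channel on either array. Its mean normalized log2 intensity was 6.99 in the depleted channel and 6.78 in the control channel. This is 1.16-fold higher as measured and not a bound (log2 ratio 0.21, limma adjusted p = 0.0315). The size depended on the processing, with a log2 ratio of 0.10 without background subtraction, 0.13 with median centring, 0.55 with processed signals and 0.59 in the deposited table, where Zim1 passed the threshold as raised. Grb10, a growth-restraining adaptor gene, and Ddc, the dopa decarboxylase gene beside it, had 0.18 and 0.13 and 0.15 and 0.25. Of the single-gene domains, Slc38a4, an amino acid transporter gene, had 0.02 and -0.04, Zdbf2 had 0.02 and -0.05 and Mcts2 had -0.09 and -0.04. The probe of Rtl1 was not well above background on either array, and no probe of Nap1l5 was well above background on both, since its brighter probe passed on the array of replicate 1 alone. Rian had no probe by accession, so these 3 genes were not tested.

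Set against each other, the parental classes overlapped throughout. Among 18 tested maternally expressed genes 3 were raised and 0 lowered, 13 ratios were positive and 5 negative, and they ran from -0.43 for Copg2 to 0.98 for H19. Among 24 tested paternally expressed genes 3 were raised and 0 lowered, 15 were positive and 9 negative, and they ran from -0.34 for Mest to 0.93 for Igf2. Gnas was left out of both classes. The median ratio was 0.13 for maternally and 0.19 for paternally expressed genes, and the maternal minus paternal difference of medians was -0.10 for replicate 1 and -0.07 for replicate 2. No p is given for this difference, which is a score over chosen genes, and an exact two-sided permutation of signs over 2 arrays cannot go below p = 0.5. Without genes whose imprinting is limited to some tissues, the difference was -0.15 on 1 array and 0.01 on the other, which leaves no shared direction.

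Within domains the order varied. Of 12 domains with a tested gene of each class, the maternal partner lay lower on both arrays in Igf2r, Dlk1-Meg3, Peg10, Mest, Zrsr1 and Peg13, and higher on both arrays in Nnat, which makes 6 domains against 1. In IC2 and Snrpn the order depended on which pair was taken, and in IC1 and in the Grb10 domain it turned between the arrays. In the Peg3 domain Zim1 minus Peg3 also turned, at -0.10 and 0.19, whereas Zim1 lay over Usp29 on both arrays, by 0.08 and 0.60. With the mean of all probes IC1 joined the domains with the maternal partner lower, which made 7 against 1. Without genes whose imprinting is limited to some tissues, Igf2r and Dlk1-Meg3 were lower, 0 domains were higher and 3 were mixed. No test was made of these counts. The median of 7 long non-coding RNAs was 0.19, the value of Kcnq1ot1 itself, and -0.01 with the mean of all probes, beside 0.18 and 0.15 for 36 coding genes.

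Regulators of imprints were next read from a list of 19 genes, all tested, of which 15 set, keep or read the methylation or chromatin of imprints and 4 (Tet1, Tet2, Tet3 and Tdg) act in the removal of methylation. Of the 19, 2 were lowered and 0 raised, beside 0.791% and 5.52% of all tested genes. At an adjusted p under 0.05 and any fold, 9 of the 19 were lower and 1 was higher, beside 23.7% and 30.5%. Dnmt1 and Ctcf were not among the 9. The ratio was negative for 14 of the 15 and for 3 of the 4, with medians of -0.15 and -0.11, where 47.3% of all tested genes were negative. Tet1 had -0.37 and -0.41. Dnmt3b, a DNA methyltransferase that sets methylation anew, fell with ratios of -0.77 and -0.70 (limma adjusted p = 9.04e-05). Dppa3, a maternal factor that shields methylation in the early embryo, fell with -0.65 and -0.60 (limma adjusted p = 0.000145). The maintenance methyltransferase gene Dnmt1 had -0.13 and -0.05, its partner Uhrf1 had -0.31 and -0.34, and Ctcf, which encodes the insulator protein at IC1, had -0.10 on both arrays. Zfp57 had 0.23 and 0.27, and its co-repressor gene Trim28 had -0.18 and -0.13.

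Among 9 genes of the IGF axis, 1 was raised and 0 were lowered, beside 5.52% and 0.791% of all tested genes, with a median of 0.03. Irs1, which encodes a docking protein for the insulin and IGF1 receptors, had 1.58 and 1.52 (limma adjusted p = 3.5e-05), and its signal rose from 285 and 270 to 872 and 850. The receptor gene Igf1r had 0.26 and 0.20, Insr had -0.40 and -0.65, and Irs2 had 0.58 and 0.57, just under the threshold. Among 34 other imprinted genes, 28 were tested, 4 were raised and 0 were lowered, beside 5.52% and 0.791% of all tested genes, with a median of 0.17. Besides Osbpl5, Tspan32 and Tnfrsf23, described above, this was Htr2a, a serotonin receptor gene. Htr2a was not well above background in the control channel. It was 1.76-fold higher after depletion as measured, which is not a bound (limma adjusted p = 6.14e-05), with mean log2 intensities of 6.58 and 7.40. Htr2a, Kcnk9, Cntn3 and Kcnq1 passed the filter through the depleted channel alone, and 24 of the 28 were well above background in the control channel. The filter favours a positive ratio for such genes.

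Markers of fibroblasts, endoderm and trophectoderm were mostly raised, where 5.52% of all tested genes were. Neural markers were not raised. In a bulk sample more cells of a type and more RNA per cell cannot be told apart. Of 20 fibroblast markers 18 were tested and 13 passed as raised at a median of 0.79, and their summed signal was 19025 and 18799 in the control channel and 39746 and 40488 in the depleted channel. Lum and Fap were not well above background, whereas Col1a1 had 1.05 and 1.08. Of 18 endoderm markers 15 were tested and 13 passed at a median of 1.02, and the sum went from 115634 and 121520 to 215505 and 221330, while Afp, Ttr and Hnf4a were not well above background. Of 12 trophectoderm markers 11 were tested and 7 passed at a median of 0.69, and the sum went from 35018 and 36912 to 92073 and 100701, or from 12049 and 11585 to 20149 and 19513 without Krt18, the brightest of them, which was left out after the values were seen, while Elf5 was not well above background and Eomes had -0.11 and -0.21. Of 8 endothelial or muscle markers 7 were tested and 2 were raised, at a median of 0.35. Of 8 neural markers 6 were tested and 0 were raised, with 4 negative ratios and a median of -0.09. The part of these cell types in the ratios of H19, Igf2, Cdkn1c and the other raised genes was not tested.

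The stem cell markers were present, since all 15 genes of a pluripotency list were detected over background in the control and in the depleted channel. Of the 15, 2 were lowered, Fgf4 at -0.85 and -0.89 and Tdgf1 at -0.55 and -0.64, and 0 were raised, with a median of -0.15. Over all tested genes 0.791% were lowered and 5.52% raised. Among the others, Pou5f1 had -0.64 and -0.32 and Nanog had -0.31 and -0.44, and neither was called. The ratio was negative for 8 of the 15, beside 47.3% of all tested genes. All 8 passed an adjusted p under 0.05, Sox2 among them with a mean of -0.53, where 23.7% of all tested genes passed as lower. The ratio was positive for the other 7, of which 5 passed, where 30.5% of all tested genes passed as higher. The means of these 5 were 0.50 for Dppa5a, 0.49 for Tbx3, 0.33 for Tfcp2l1, 0.29 for Klf2 and 0.14 for Klf4.

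**Figure D5:**
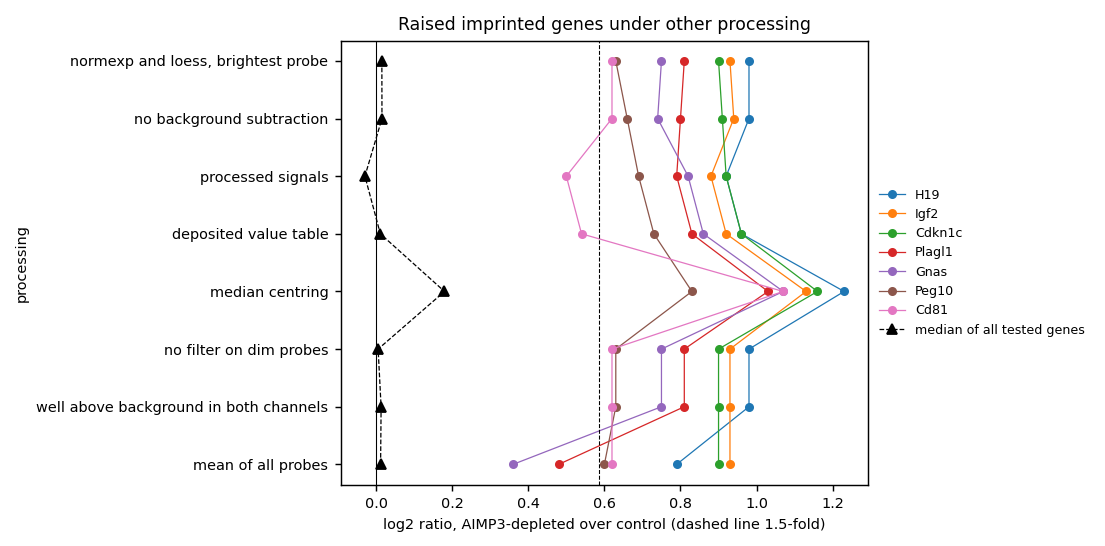
Mean log2 ratio (x axis) of the 7 raised imprinted genes under each way of processing the arrays (y axis), with the median of all tested genes as black triangles and 1.5-fold as a dashed line. H19, Igf2, Cdkn1c and Peg10 stay right of the line in every one, whereas Cd81 lies left of it with processed signals and in the deposited table and Gnas and Plagl1 with the mean of all probes. With median centring the median of all genes is at 0.18.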

How the data were processed

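Expression was measured on 2 two-colour arrays. The authors deposited the scanner output of Agilent Feature Extraction (the header gives version 11.5.1.1 and the methods an older one), which holds the intensity of every spot and its background, processed signals after background subtraction and dye normalization by the software, and the log10 of Cy5 over Cy3. GeneSpring gave the log2 ratios of the value table that the authors deposited, and these equal the log2 ratio of processed signals plus a shift of 0.0404 and 0.0395 for the arrays of replicates 1 and 2, within 0.01 for 99.8% of spots on both arrays. The columns of per-sample values left out numbered 0.

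From the scanner intensities, median signals were corrected with limma's normexp (offset 50, median local background), since the files hold no mean signal. Each array was loess-normalized, control spots were dropped, spots with an outlier flag (215 and 227) were dropped too, and repeated spots of 1 probe were averaged. The filter kept 33022 of 55681 probes. The mean log2 ratio of a gene's brightest probe was tested against 0 with lmFit and eBayes (1 residual and 5.25 prior degrees of freedom), and p-values were adjusted by Benjamini-Hochberg over all 24030 tested genes. The steps were tested on simulated data. RefSeq names (GRCm38.p6) matched 31014 of 59305 spots that are not controls. The precision is limited by 2 arrays, with median signal over background between 2.68 and 3.31.

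The 46 genes, the lists and the parental classes (from textbook knowledge) were chosen with earlier results of these data known. Genes named are the members past the threshold, the extremes of each class, both partners of a domain, undetected members, members of the lists on imprint regulators, other imprinted genes and the IGF axis past the threshold, and Eef1e1, and further members and list genes are given as context. Of the lists, 3 genes (Pdgfra, Dcn and Ins2) are each in 2. The alternatives were no background subtraction, processed signals, median centring, no filter or a stricter one on probes with low signal, a mean over a gene's probes, the deposited table, other thresholds, the methods' t-test, classes without genes of tissue-limited imprinting, and each replicate left out as a value with no test. R 4.3.3, limma 3.58.1, Python 3.11.15, pandas 2.3.3 and numpy 2.4.6 were used.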

Additional observations from a re-analysis of the deposited data

How the results depend on the processing

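H19, Igf2, Cdkn1c and Peg10 were called raised under each of the 7 processing alternatives with a limma test. Their mean ratios were 0.79 to 1.23, 0.88 to 1.13, 0.90 to 1.16 and 0.60 to 0.83. Cd81 was not called with processed signals (0.50) or in the deposited table (0.54), nor Gnas (0.36) and Plagl1 (0.48) with the mean of all probes. Airn gained a call with the mean of all probes (0.72), under which 6 imprinted genes were raised, beside 5% of all tested genes. Zim1 was called only in the deposited table (0.59), among the settings with a test and apart from the threshold changes. Median centring moved the median of all tested genes to 0.18, and 15 imprinted genes were then raised, beside 11.7% of all tested genes. Relative to that median, 7 of the 43 were over 1.5-fold higher and 0 were lower, beside 6.32% of all tested genes higher. Over all tested genes the raised and lowered counts were 1943 and 772 with processed signals, 2131 and 617 in the deposited table and 2823 and 65 with median centring, beside 1327 and 190. At 2-fold 0 imprinted genes were raised, beside 1.17% of all tested genes, and at an adjusted p under 0.05 and any fold 24 were raised and 5 lowered, beside 30.5% and 23.7%. Of these 5, Mest (-0.03), Ppp1r9a (-0.0) and Commd1 (-0.05) no longer passed with median centring, whereas Copg2 (-0.22) and Nespas (-0.16) did. Relative to the shifted median, Ppp1r9a stood at -0.18 and Commd1 at -0.23. By fold alone, with no test, the count raised was 8 on the array of replicate 2 alone, where Ascl2 passed, and 6 on the array of replicate 1 alone, where Peg10 did not, beside 5.82% and 5.51% of all tested genes. The methods' t-test on the ratios gave 5 raised and 0 lowered imprinted genes at the study's threshold, beside 3.6% and 0.533% of all tested genes. The 5 were H19, Igf2, Cd81, Gnas and Plagl1, so Cdkn1c and Peg10 did not pass the t-test. After Benjamini-Hochberg adjustment of the t-test 0 imprinted genes passed.

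The sign turned under median centring for Meg3 (0.19), Mirg (0.20), Snrpn (0.17), Mkrn3 (0.04), Peg12 (0.14), Slc38a4 (0.29), Mcts2 (0.19) and Zdbf2 (0.17). Relative to the shifted median these stood at 0.01, 0.02, -0.01, -0.14, -0.04, 0.11, 0.01 and -0.01 in the same order, so that Snrpn, Mkrn3, Peg12 and Zdbf2 stayed negative. The sign turned with the mean of all probes for Kcnq1ot1 (-0.03) and Trappc9 (-0.09), with processed signals for Slc22a18 (-0.05), Ube3a (-0.01) and Slc38a4 (0.01), and in the deposited table for Slc22a18 (-0.01), Mirg (0.01) and Slc38a4 (0.05). The maternal median was 0.06 with processed signals, 0.29 with median centring and 0.10 in the deposited table, and 0.09 to 0.13 with 1 array left out. The paternal median was 0.15, 0.41 and 0.19 under the same settings, 0.18 with no filter, 0.14 with the mean of all probes, and 0.19 to 0.20 with 1 array left out. The difference was -0.12 with median centring, -0.04 with the mean of all probes and -0.10 to -0.07 with 1 array left out. Beyond what the construction of each setting shows, the cause was not tested. No paired analysis was possible because both arrays belong to 1 group and share 1 control pool.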
